A study of Mus musculus with 12 samples.

Results

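Astrocytes make most of the lipoprotein particles of the brain. The genes described here are the 10 listed members of that lipoprotein, cholesterol efflux and liver X receptor (LXR) system, chosen by gene symbol: Apoe, Clu, Lcat, Lpl, Abca1, Abcg1, Lrp1, Nr1h2, Nr1h3 and Mylip. They are 10 of the 45777 genes in the deposited table, and all 10 were among the 19163 genes with enough counts to be tested. RNA came from astrocytes of the mouse cerebral cortex, isolated by immunopanning and magnetic beads at postnatal day 14. Both genotypes carried the floxed glucocorticoid receptor gene, Nr3c1 flox/flox. AGR cKO pups carried Aldh1l1-CreERT2 as well, a Cre recombinase driven in astrocytes by the Aldh1l1 promoter and activated by tamoxifen, and Cre- pups lacked it. Pups of all 4 groups received 4-hydroxytamoxifen on days 5 to 7, so the Cre- groups are drug-treated controls. In each genotype, no separation is given for control pups, and ESD pups were taken from the dam for 3 hours daily on days 1 to 14. Crossing genotype with condition gave 4 groups of 3 libraries. The labels do not say whether a library is 1 pup or a pool, so p-values measure the spread between these libraries. Within groups the genotype labels count upward with the replicate (Nr3c1, Nr3c2, Nr3c3 and CreERT2, CreERT3, CreERT4), and the groups were taken from the titles.

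Apolipoprotein E is the chief lipid-carrying protein that astrocytes secrete, and clusterin is carried on the same kind of particle. The transporter ABCA1 passes cholesterol and phospholipid to lipid-poor apolipoprotein, ABCG1 passes cholesterol to particles already formed, and the enzyme LCAT esterifies that cholesterol so that the particle matures. Neurons and glia take particles up through LDL receptor family members such as LRP1. The nuclear receptors LXR-beta (Nr1h2) and LXR-alpha (Nr1h3) are activated by oxysterols and raise Abca1, Abcg1, Apoe and Mylip, whose product IDOL is a ubiquitin ligase that sends LDL receptors for degradation.

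The libraries held 42603546 to 52130081 counts each. Nr3c1 separated the genotypes in every library, at 199 to 237 CPM (counts scaled by library total) in Cre- and 66.6 to 108 CPM in AGR cKO, a log2 fold change of -1.20 ± 0.08 (SE, edgeR quasi-likelihood test, adjusted p = 0.000203). The 18 astrocyte markers were detected in all 12 libraries, with summed levels of 48603 to 68462 CPM. Markers of other cells were present too. The 13 endothelial markers summed to 386 to 2044 CPM in Cre- libraries and 270 to 810 CPM in AGR cKO libraries, and the 20 microglial and macrophage markers to 567 to 1439 CPM and 336 to 686 CPM, with no marker of either list at 0. Cre- control 1 stood apart, with the highest sum of both lists. In bulk RNA, fewer cells of a type and less RNA per cell cannot be told apart. In the comparison of genotype over both conditions, 3 of 10 ependymal and choroid plexus markers were called lower, as were 2 of 18 astrocyte markers with 1 called higher. No marker on the lists of microglia, endothelium, mural cells, neurons, oligodendrocytes, their precursors or erythroid cells passed in that comparison. At an unadjusted p under 0.05 (edgeR) there were 19 of 20 microglial, 11 of 13 endothelial and 5 of 5 erythroid markers, against 20% of all genes. Mural cells had 2 of 13, neurons 2 of 16, oligodendrocytes 1 of 8 and precursors 4 of 8. The 5 erythroid markers were all lower, with a median log2 fold change of -1.04.

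The promoter windows of Abca1 and Apoe are shown because the deleted gene encodes a DNA-binding receptor, whose core motif AGAACA occurs in these windows and in no other member window matched. RefSeq (GRCm38.p6, the mm10 build) gave 10 windows for 7 of the members, each running from 250 bases before a transcript start to 50 after it. Clu, Abcg1 and Lpl are named only. Capitals mark AGAACA, searched on both strands, and both windows are written 5′ to 3′ on the minus strand, at chr4:53159846-53160145 for Abca1 and chr7:19699139-19699438 for Apoe.
Abca1: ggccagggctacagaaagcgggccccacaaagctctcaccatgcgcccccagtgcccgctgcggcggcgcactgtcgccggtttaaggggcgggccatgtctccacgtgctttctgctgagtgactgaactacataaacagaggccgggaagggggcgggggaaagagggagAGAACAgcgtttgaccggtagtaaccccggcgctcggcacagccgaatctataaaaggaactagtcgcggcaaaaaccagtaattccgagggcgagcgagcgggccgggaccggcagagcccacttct
Apoe: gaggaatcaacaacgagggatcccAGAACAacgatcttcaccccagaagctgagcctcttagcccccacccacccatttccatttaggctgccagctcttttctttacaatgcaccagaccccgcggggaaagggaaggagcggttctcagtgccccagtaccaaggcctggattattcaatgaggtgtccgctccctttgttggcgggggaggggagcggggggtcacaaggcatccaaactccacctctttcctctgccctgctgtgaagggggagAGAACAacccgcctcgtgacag
In Abca1 the match begins at base -78 relative to the start. In Apoe the matches begin at -226 and 29. The same letters were found in 19% of all 32851 mouse windows of this length, so 2 of 10 member windows is close to the background. The full palindrome, AGAACA and TGTTCT around any 3 bases, was in 0.00913% of windows, the core LXR motif AGGTCA in 16.3%, and its direct repeat with any 4 bases between the copies in 0.0152%. None of the member windows held any of these. Allowing 1 mismatch in each copy of that repeat gave matches in 1.75% of windows and again in none of the members'. Repeats with more mismatches in a copy were not searched for, so an LXR site of looser spelling would be missed. The Abca1 window shown holds tgaccggtagtaaccc, which on the other strand is such a repeat with 2 mismatches in 1 copy and 1 in the other. A match is a run of letters and not a measured binding site.

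Levels of the 10 genes spanned more than 3 orders of magnitude. Compared per length as deposited TPM (transcript levels scaled by length and library total), the mean over the 12 libraries was 14457 for Apoe, the gene at rank 2 of the whole table. Clu followed at 6007 TPM (rank 15). Lrp1 stood at 349 TPM, Lcat at 265 TPM, Abca1 at 188 TPM and Nr1h2 at 63.1 TPM. The lowest were Mylip at 21.5 TPM, Nr1h3 at 15.9 TPM, Abcg1 at 6.75 TPM and Lpl at 3.21 TPM. Each gene was above the next within each of the 12 libraries, except Lrp1 over Lcat, which held in 11 of 12. Across libraries the ranges of several neighbours overlapped, as with Mylip (14.96 to 27.3 TPM) and Nr1h3 (10.1 to 21.7 TPM), and Abcg1 (3.09 to 13.7 TPM) and Lpl (2.08 to 6.57 TPM). Of the receptor pair, Nr1h2 was thus the more abundant LXR transcript in this preparation, and of the transporter pair, Abca1 was. Together the 10 genes held 1.2% to 1.63% of the counts of a library.

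How much a gene varied from library to library also differed. The ratio of the highest to the lowest CPM among the 12 libraries was 1.26 for Nr1h2, 1.33 for Clu, 1.34 for Lrp1, 1.37 for Abca1 and 1.41 for Lcat. It was 1.75 for Apoe, 1.76 for Mylip and 1.92 for Nr1h3. Lpl reached 2.87 and Abcg1 3.99, and in both the highest library was Cre- control 1. That library also had the highest Lcat and Mylip and the lowest Apoe, Abca1 and Lrp1.

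**Figure D1:**
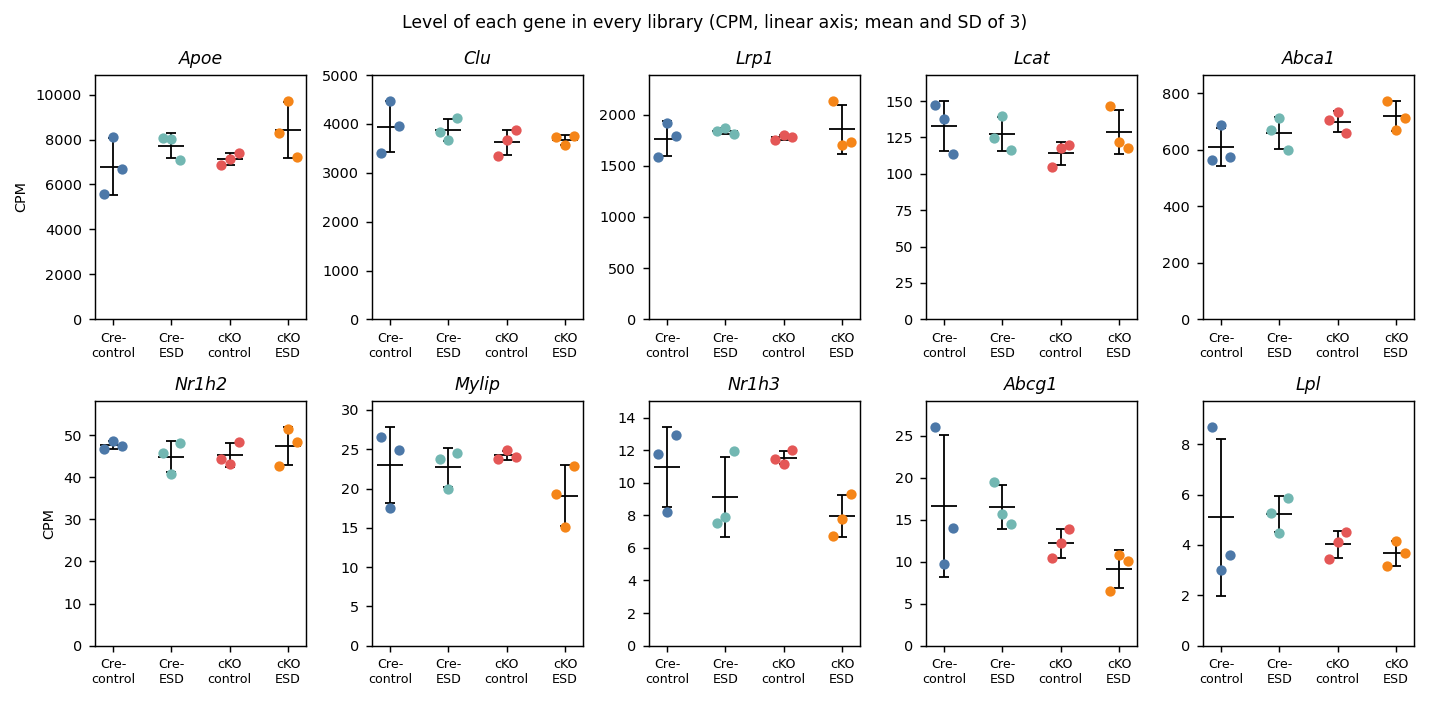
CPM (linear axis from 0) of each of the 10 genes in every library, by group, with points for the 3 libraries and bars for mean and SD. Nr1h2, Clu, Lrp1, Abca1 and Lcat vary least, with highest-to-lowest ratios of 1.26 to 1.41 over the 12 libraries. Abcg1 and Lpl spread widely in Cre- control, where 1 library stands at 26.01 CPM and 8.68 CPM.

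None of the 10 genes was called in any comparison by the edgeR quasi-likelihood test, at an adjusted p under 0.05 over all 19163 genes. For genotype over both conditions, where 3.49% of all genes were called, 0 of 10 members were. For genotype in ESD the share of all genes was 1.04%, and for genotype in control 0.0157%, again with 0 members. For stress in Cre-, stress in AGR cKO, stress over both genotypes and the interaction of genotype and stress, 0% of all genes and 0 members were called. At an unadjusted p under 0.05 the members were 2 for genotype over both conditions (Abca1 and Abcg1, against 20% of all genes) and 1 for genotype in ESD (Abcg1, 15.6%). They were 1 for stress in AGR cKO (Nr1h3, 7.58%) and 1 for stress over both genotypes (Nr1h3, 10.4%). There was none for stress in Cre- (7.19%), genotype in control (10.2%) or the interaction (4.49%). Groups that did not overlap in CPM were found for 2 of 10 members for genotype in ESD (Lpl and Abcg1, against 19.9% of all genes) and 2 of 10 for stress in AGR cKO (Nr1h3 and Mylip, 16.6%). No member was separated for stress in Cre- (11.1% of all genes), genotype in control (16.9%), genotype over both conditions (2.77%) or stress over both genotypes (0.459%). DESeq2 called 1 member, Abcg1, for genotype over both conditions and 0 members in the other 6 comparisons, and limma on log2 TPM called 0 in all.

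The median log2 fold change of the 10 genes lay close to that of all genes in each comparison. For genotype over both conditions it was -0.07, against -0.00 for all genes tested. For stress over both genotypes it was -0.01 for both sets. In the 4 comparisons of single groups it ran from -0.03 to 0.03, and for the interaction it was -0.04 against 0.02. A missing call is not a zero effect, so the intervals matter more. The 95% interval of the genotype difference over both conditions lay within 1.5-fold either way for 8 of 10 genes, all but Lpl and Abcg1. The interval of the stress difference over both genotypes lay within 1.5-fold for 8 of 10 genes, all but Abcg1 and Nr1h3, and within 2-fold for all 10. For the interaction only 5 of 10 lay within 1.5-fold, with Lcat, Lpl, Abcg1, Nr1h3 and Mylip outside. The count was 6 of 10 for genotype in ESD and for stress in AGR cKO. It was 7 of 10 for stress in Cre- and 8 of 10 for genotype in control.

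**Figure D2:**
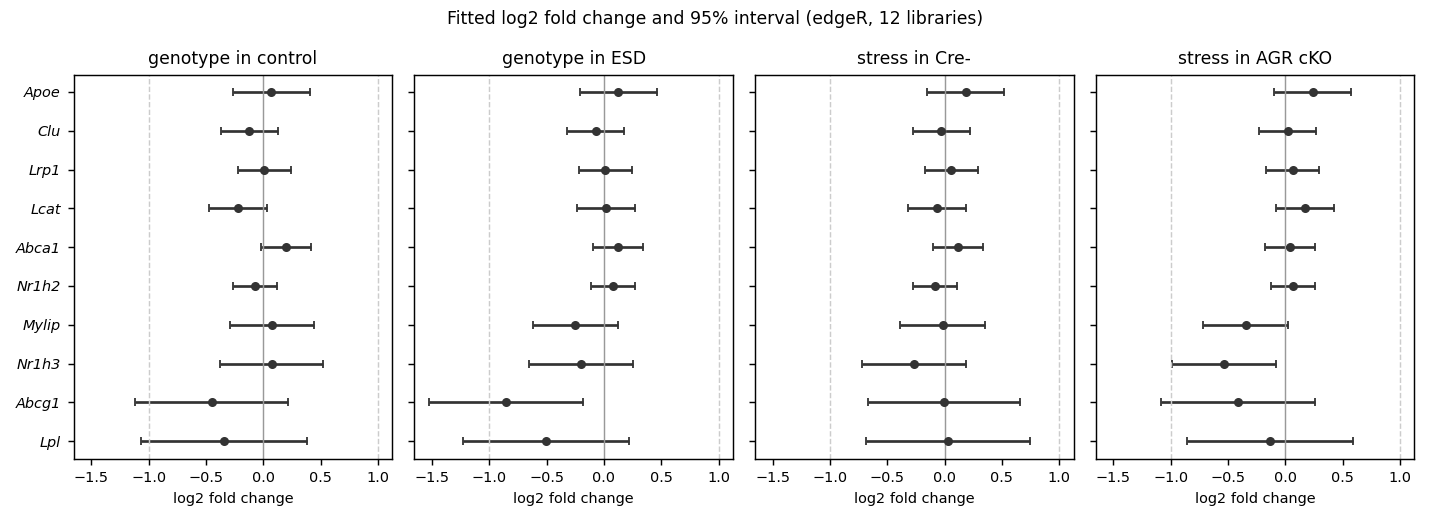
Fitted log2 fold changes (horizontal axis) of the 10 genes with 95% intervals in the 4 comparisons of single groups, with dashed lines at 2-fold. The intervals of Abcg1 for genotype in ESD (-1.53 to -0.18) and of Nr1h3 for stress in AGR cKO (-0.99 to -0.08) lie below 0, and neither gene passed the adjusted test.

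Apoe encodes the particle's main protein and was the most abundant of the 10. Its levels were 5570, 8119 and 6709 CPM in Cre- control, 8048, 8032 and 7086 CPM in Cre- ESD, 6860, 7136 and 7416 CPM in AGR cKO control, and 8306, 9724 and 7237 CPM in AGR cKO ESD. The ESD libraries tended to the upper part of the range, and the groups overlapped in both genotypes. The log2 fold change for stress over both genotypes was 0.21 ± 0.11 (adjusted p = 0.505, 95% interval -0.03 to 0.45), with 0.18 ± 0.15 in Cre- and 0.24 ± 0.15 in AGR cKO. For genotype over both conditions it was 0.10 ± 0.11 (adjusted p = 0.694).

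Clu encodes clusterin, also called apolipoprotein J. It had means of 3946 ± 530 CPM in Cre- control, 3871 ± 226 CPM in Cre- ESD, 3629 ± 258 CPM in AGR cKO control and 3682 ± 102 CPM in AGR cKO ESD (SD, n = 3). All 4 ranges overlapped. The genotype difference over both conditions was -0.10 ± 0.08 on the log2 scale (adjusted p = 0.570), and the stress difference was -0.00 ± 0.08 (95% interval -0.18 to 0.17), a change of less than 1.5-fold either way.

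Lcat encodes the enzyme that esterifies cholesterol on the particle. Its levels were 147, 137 and 114 CPM in Cre- control, 125, 140 and 117 CPM in Cre- ESD, 105, 118 and 119 CPM in AGR cKO control, and 146, 122 and 118 CPM in AGR cKO ESD. The groups overlapped throughout. Its smallest p among the comparisons was that of genotype in control, with a log2 fold change of -0.22 ± 0.12 (adjusted p = 0.563). In ESD the genotype difference was 0.02 ± 0.12, and the interaction, 0.24 ± 0.16, did not pass (adjusted p = 0.999).

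Lpl encodes lipoprotein lipase, which frees fatty acids from particle triglyceride and is made in the brain by microglia and neurons among others. It was the lowest of the 10, at 8.68, 3.02 and 3.59 CPM in Cre- control, 5.29, 4.46 and 5.88 CPM in Cre- ESD, 3.44, 4.11 and 4.53 CPM in AGR cKO control, and 3.15, 4.16 and 3.69 CPM in AGR cKO ESD. These levels rest on 129 to 398 counts per library. Each AGR cKO ESD library was below each Cre- ESD library, a separation that 19.9% of all genes showed in that comparison. On the log2 scale this difference was -0.51 ± 0.33 (adjusted p = 0.490), and over both conditions it was -0.42 ± 0.23 (adjusted p = 0.347). Without Cre- control 1 the difference over both conditions was -0.11 (adjusted p = 0.739), and in control pups it changed from -0.34 to 0.28.

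The deposited transcript values of Apoe fell into a pattern that did not follow the groups. Of its 5 annotated transcripts, a 1273-base transcript that starts at base 19699188 of chromosome 7 held 97.7% to 99.5% of the gene's TPM in 9 libraries. In the other 3 libraries, Cre- control 2, Cre- ESD 3 and AGR cKO ESD 1, it held 1.13% to 2.66%. There a predicted 3010-base transcript that starts upstream, at base 19701310, held 94.5% to 96.7%, where elsewhere its share was 0.167% to 1.01%. These 3 libraries come from 3 of the groups, and AGR cKO control had none.

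Gene-level TPM moved with the transcript. In those 3 libraries Apoe stood at 6796 to 7879 TPM, and in the other 9 at 13306 to 22505 TPM, with no overlap. The CPM from gene counts did not separate them, at 7086 to 8306 CPM and 5570 to 9724 CPM. The TPM per CPM was 0.949 to 0.962 in the 3 libraries and 2.19 to 2.39 in the others. Among 6911 genes with several transcripts and at least 10 TPM in every library, Apoe was the only one in each of these 3 libraries whose leading transcript, at over 90% in the median library, fell under 10%. The order of Apoe over Clu held in all 12 libraries on TPM even so. Fitted on log2 TPM with limma, the genotype difference in control was 0.49 (adjusted p = 0.806), against 0.07 from the counts, and the stress difference in AGR cKO was -0.19 against 0.24. What set the assignment was not tested.

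**Figure D3:**
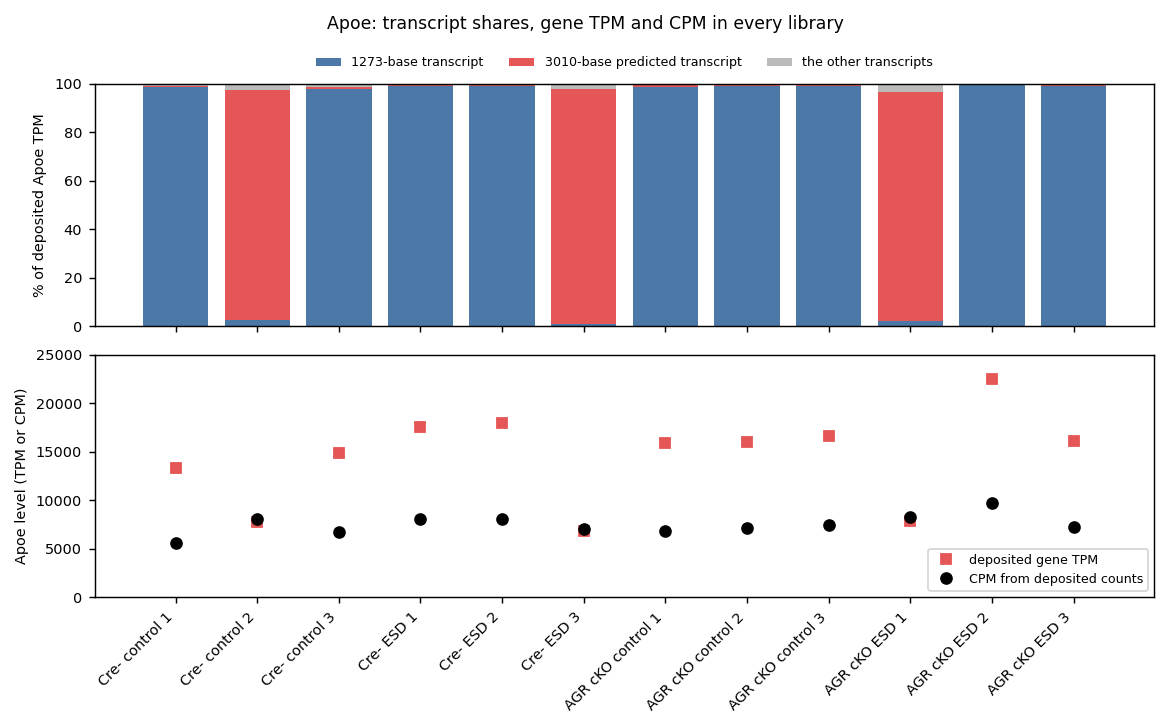
Top, the percent of deposited Apoe TPM held by the 1273-base and the predicted 3010-base transcript in each of the 12 libraries. Bottom, the level of Apoe as deposited gene TPM and as CPM from deposited counts, on a linear axis from 0. In the 3 libraries where the 3010-base transcript holds most of the TPM, gene TPM is 6796 to 7879, below every other library, while CPM stays within the range of the rest.

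Clu and Abca1 kept their leading transcript in all 12 libraries. A 1811-base transcript held 90.9% to 93.6% of Clu, and a 10260-base transcript 88.2% to 96% of Abca1. The less abundant LXR genes were spread over more forms, 8 transcripts for Nr1h2 and 6 for Nr1h3. Nr1h2 was led by a 2282-base transcript (19.1% to 42.7%) and a 2015-base transcript (16% to 45.9%). Of Nr1h3, the transcript with the largest mean share, 1955 bases long, ranged from 5.25% to 46.1%, and a predicted 1658-base transcript from 1.99% to 74.9%. Abcg1, Lpl, Lcat, Lrp1 and Mylip each have 1 transcript in the table.

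Abca1 encodes the transporter that starts a particle. Its levels were 566, 687 and 574 CPM in Cre- control, 670, 711 and 600 CPM in Cre- ESD, 706, 734 and 660 CPM in AGR cKO control, and 774, 671 and 714 CPM in AGR cKO ESD. The AGR cKO means were higher, at 700 against 609 CPM in control and 719 against 660 CPM in ESD, and in both conditions the genotypes overlapped. The genotype difference over both conditions was 0.16 ± 0.07 on the log2 scale (adjusted p = 0.230, 95% interval 0.01 to 0.32). It was 0.20 ± 0.10 in control and 0.12 ± 0.10 in ESD, and the interaction was -0.08 ± 0.14 (adjusted p = 0.999). For stress over both genotypes it was 0.08 ± 0.07 (adjusted p = 0.708).

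Abcg1 encodes the transporter that loads particles already formed. It stood at 26.01, 9.77 and 13.9 CPM in Cre- control, 19.4, 15.6 and 14.5 CPM in Cre- ESD, 10.4, 12.2 and 13.9 CPM in AGR cKO control, and 6.52, 10.8 and 10.1 CPM in AGR cKO ESD. All AGR cKO ESD libraries were below all Cre- ESD libraries, while in control pups the genotypes overlapped. The log2 fold change for genotype was -0.86 ± 0.31 in ESD (adjusted p = 0.218) and -0.45 ± 0.31 in control (adjusted p = 0.664), and the interaction was -0.41 ± 0.43 (adjusted p = 0.999). Over both conditions it was -0.65 ± 0.22 (adjusted p = 0.119), with a 95% interval of -1.12 to -0.18. With DESeq2 the adjusted p was 0.0359, and without Cre- control 2 the edgeR value was -0.78 (adjusted p = 0.0403). Leaving out Cre- control 1 brought the difference to -0.41 over both conditions and, in control pups, from -0.45 to 0.04.

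The level of Abcg1 went with the levels of endothelial and microglial markers. All Pearson correlations with marker sums were taken on log2 levels. Over the 12 libraries Abcg1 had a Pearson correlation of 0.940 with the summed endothelial markers (permutation test, p adjusted over 20 relations = 0.0006) and a Spearman correlation of 0.818 (adjusted permutation p = 0.0206). With the microglial markers the values were 0.905 (adjusted permutation p = 0.001) and 0.881 (adjusted permutation p = 0.0064). Without the 2 libraries farthest from the median they were 0.855 for endothelium and 0.795 for microglia. Lpl had Pearson correlations of 0.797 and 0.776 (each with an adjusted permutation p = 0.0124), Spearman correlations of 0.713 and 0.720 (each with an adjusted permutation p = 0.0546), and values of 0.488 and 0.540 without those libraries, so its relation rests partly on them. For Abca1 the correlation with microglial markers was -0.679 (adjusted permutation p = 0.0622) and -0.366 without them. All these pairs share a library and its scaling, and the other 7 genes gave adjusted permutation p of at least 0.119. The permutations shuffled all 12 libraries without regard to group. A group difference shared by gene and markers therefore enters these p-values, and relations within groups were not tested.

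Most markers of both lists had lower fitted levels in AGR cKO, while their sums overlapped between the genotypes. Endothelial sums were 2044, 386 and 722 CPM in Cre- control and 383, 482 and 810 CPM in AGR cKO control. Of the Cre- control libraries, only Cre- control 1 thus lay above the AGR cKO control range. In ESD the microglial sums did not overlap, at 728 to 1144 CPM in Cre- and 336 to 683 CPM in AGR cKO. Over both conditions the median log2 fold change for genotype was -1.04 over the 13 endothelial markers, 13 of them lower, and -1.08 over the 20 microglial markers, 19 of them lower, with 0 of either list called. With both marker sums as covariates, the genotype difference of Abcg1 over both conditions was -0.10 (adjusted p = 0.932), that of Lpl 0.11 (adjusted p = 0.968) and that of Abca1 0.05 (adjusted p = 0.965). The covariates differ with genotype, so this fit removes part of any genotype difference too, and all-gene calls fell from 668 to 5.

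**Figure D4:**
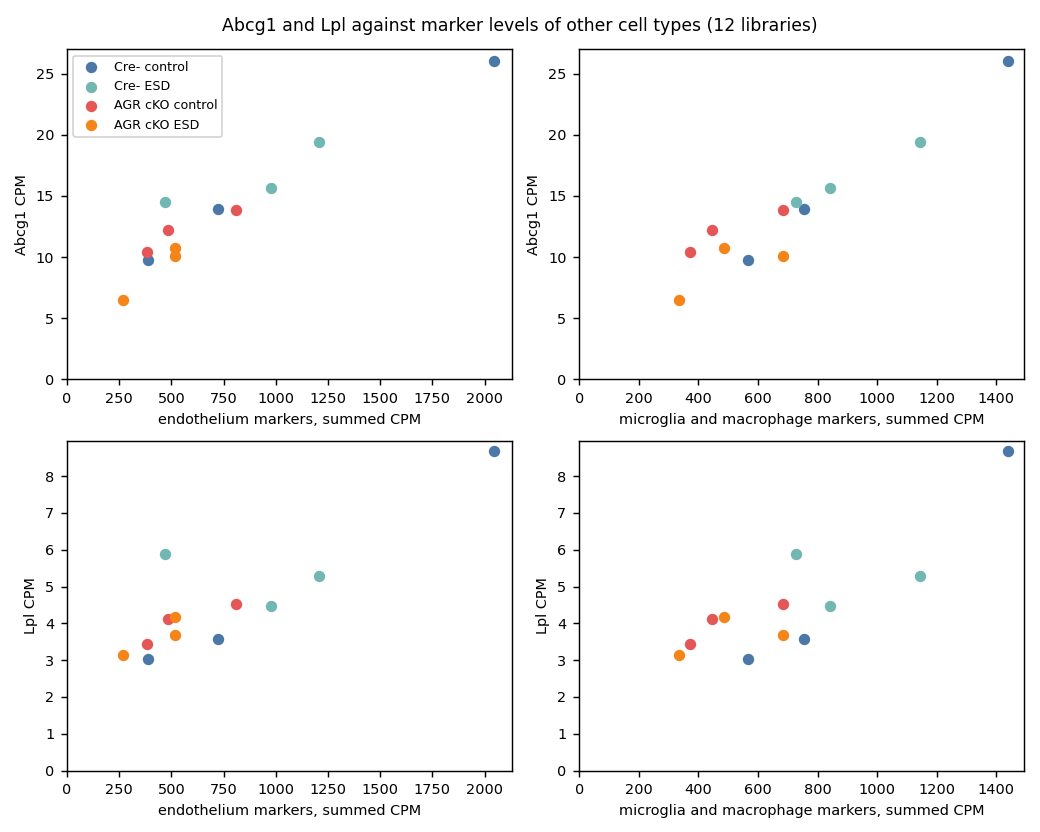
CPM of Abcg1 (top) and Lpl (bottom) against the summed CPM of 13 endothelial markers (left) and 20 microglial and macrophage markers (right), 1 point per library, on linear axes from 0. Abcg1 rises with both sums across all 4 groups, and Cre- control 1 is the point at the upper right of each panel, at 2044 CPM and 1439 CPM of markers.

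Lrp1 encodes a large endocytic receptor that takes up Apoe-bearing particles. It stood at 1587, 1922 and 1787 CPM in Cre- control, 1842, 1866 and 1810 CPM in Cre- ESD, 1751, 1799 and 1780 CPM in AGR cKO control, and 2134, 1704 and 1730 CPM in AGR cKO ESD. In each comparison of single groups tested, the libraries overlapped. Its genotype difference over both conditions was 0.01 ± 0.07 (adjusted p = 0.958) on the log2 scale, with a 95% interval of -0.15 to 0.17. For stress over both genotypes the difference was 0.06 ± 0.07 (adjusted p = 0.794, 95% interval -0.10 to 0.22).

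Nr1h2, the gene of LXR-beta, was the least variable of the 10. Its group means were 47.6 ± 0.976 CPM in Cre- control, 44.9 ± 3.68 CPM in Cre- ESD, 45.3 ± 2.79 CPM in AGR cKO control and 47.4 ± 4.46 CPM in AGR cKO ESD (SD, n = 3). The genotype difference over both conditions was 0.00 ± 0.06 (95% interval -0.13 to 0.14) and the stress difference -0.01 ± 0.06 (95% interval -0.14 to 0.13), both on the log2 scale.

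Nr1h3, the gene of LXR-alpha, had a lower mean in the stressed group of both genotypes. It stood at 11.7, 8.22 and 12.9 CPM in Cre- control, 7.51, 7.90 and 11.9 CPM in Cre- ESD, 11.5, 11.2 and 11.98 CPM in AGR cKO control, and 6.72, 7.80 and 9.33 CPM in AGR cKO ESD. In AGR cKO every ESD library was below every control library, as 16.6% of all genes were separated one way or the other in that comparison. In Cre- the ESD and control libraries overlapped. The log2 fold change for stress was -0.54 ± 0.21 in AGR cKO (adjusted p = 0.647) and -0.27 ± 0.21 in Cre- (adjusted p = 0.801), and the interaction was -0.27 ± 0.29 (adjusted p = 0.999). Over both genotypes it was -0.40 ± 0.15 (adjusted p = 0.448), and it stayed between -0.52 and -0.34 when each library in turn was left out. The genotype difference over both conditions was -0.06 ± 0.15 (adjusted p = 0.875).

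Mylip, the LXR target that encodes IDOL, stood at 26.6, 17.5 and 24.8 CPM in Cre- control, 23.7, 19.9 and 24.5 CPM in Cre- ESD, 23.8, 24.9 and 24.0 CPM in AGR cKO control, and 19.3, 15.1 and 22.8 CPM in AGR cKO ESD. Here too each AGR cKO ESD library was below each AGR cKO control library. The sums of some marker lists of other cells separated the same libraries. The 13 mural and fibroblast markers summed to 2237 to 4657 CPM in AGR cKO ESD and 5700 to 6520 CPM in AGR cKO control, with a median log2 fold change of -0.75 and 12 of 13 lower. The 16 neuronal markers summed to 164 to 190.1 CPM and 192 to 219.9 CPM, with a median of -0.76 and 15 of 16 lower, and the 8 precursor markers to 179 to 265 CPM and 314 to 361 CPM, with a median of -0.38 and 6 of 8 lower. None of these markers was at 0 in any of the 6 libraries or was called. The sums of the other marker lists overlapped. Among those, 5 of 5 erythroid, 10 of 10 ependymal and 13 of 13 endothelial markers were lower, with medians of -0.85, -0.33 and -0.31. The part of markers in the values of Nr1h3 and Mylip was not tested. The log2 fold change for stress was -0.34 ± 0.17 in AGR cKO (adjusted p = 0.687) and -0.02 ± 0.17 in Cre- (adjusted p = 0.993), with an interaction of -0.33 ± 0.24 (adjusted p = 0.999). The other members named above as raised by LXR were compared in the same AGR cKO pups. Their values were 0.24 ± 0.15 for Apoe, 0.04 ± 0.10 for Abca1 and -0.41 ± 0.31 for Abcg1. Of the 12 genes tested from the list of other LXR targets, 11 had positive values there, with a median of 0.21 against 0.00 for all genes. Over both genotypes 12 of 12 had positive values, with a median of 0.12 against -0.01. Of all 19163 genes, 9765 and 9193 were positive in these comparisons. Among other lists, astrocyte markers were positive for 16 of 18 and 15 of 18, and other apolipoproteins for 8 of 8 in both. Of these apolipoproteins, Apoa1 and Apoa2 lay at or under 2.85 CPM, each with its highest value in AGR cKO ESD 2. Lipoprotein receptors were positive for 7 of 16 and 6 of 16. In Cre- pups 8 of the 12 LXR targets were positive for stress, with a median of 0.10 against -0.02 for all genes. None of the 12 was called for stress, and the cause of the lean was not tested.

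The genes whose log2 CPM was most like that of a member, among 11762 genes with at least 5 CPM on average, were found for the 3 members with the smallest p for genotype. For Abcg1 they were Trf (transferrin, Pearson r = 0.982 over 12 libraries), Abcg2 (0.978), Pvr (0.978), Tinagl1 (0.976) and Ndrg1 (0.976). For Abca1 they were Cnih4 (0.951), Fzd3 (0.946), Sgpl1 (0.944), Arxes2 (0.942) and Pign (0.930). For Lpl they were Mrtfb (0.923), Arhgef7 (0.922), Notch4 (0.917), Ppp1r13b (0.916) and Lama1 (0.915). All these genes share the same libraries, and none was called for genotype over both conditions.

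Around the 10 genes, 102 further genes of the pathway were listed in 8 groups. The lists were chosen with earlier results of these data known, so their calls are not independent of those results. In the genotype comparison over both conditions, 7 of the listed genes that could be tested passed. Of these, 1 was higher and 6 were lower with the knockout, against 1.55% (higher) and 1.94% (lower) of all genes tested. By group the calls were 1 of 16 lipoprotein receptors (higher), 1 of 11 lipases and their regulators (lower), 1 of 6 genes of cholesterol ester storage (lower), 1 of 6 oxysterol enzymes (lower), 1 of 13 LXR partners and cofactors (lower) and 2 of 12 other LXR targets (lower). Of the 8 other apolipoproteins and the 18 sterol transporters and carriers tested, 0 were called. The median log2 fold change of the 8 groups ran from -0.13 to 0.07, close to that of all genes. For genotype in ESD, 1 gene was called, the LXR target Mertk, and for genotype in control, stress in either genotype and the interaction none was.

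Rxra encodes the retinoid X receptor with which an LXR pairs on DNA. It fell in AGR cKO, from 35.1, 40.6 and 40.0 CPM in Cre- control and 36.3, 39.1 and 60.6 CPM in Cre- ESD to 24.7, 24.9 and 26.4 CPM in AGR cKO control and 22.6, 27.9 and 28.6 CPM in AGR cKO ESD. No AGR cKO library reached any Cre- library. Its log2 fold change was -0.69 ± 0.12 (adjusted p = 0.0127), and the call held when each library in turn was left out. With the marker covariates it was -0.52 (adjusted p = 0.367).

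Mertk encodes an engulfment receptor that LXR raises in macrophages and that astrocytes also use to take up synapses. It stood at 429, 512 and 520 CPM in Cre- control, 570, 534 and 818 CPM in Cre- ESD, 284, 285 and 296 CPM in AGR cKO control, and 349, 255 and 376 CPM in AGR cKO ESD. The genotypes did not overlap. The log2 fold change was -0.86 ± 0.12 over both conditions (adjusted p = 0.00662), kept in each leave-one-out fit, and -0.97 in ESD (adjusted p = 0.0326), where the call held in 3 of 12 such fits. With the covariates it was -0.68 (adjusted p = 0.12) over both conditions and -0.86 (adjusted p = 0.0471) in ESD.

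Mlxipl, the gene of the glucose-sensing factor ChREBP and an LXR target in liver, fell by 0.65 on the log2 scale (adjusted p = 0.0204), a call lost without AGR cKO control 1 or without AGR cKO control 2 (adjusted p = 0.0565 and 0.0643). The remaining 4 calls were less firm. Vldlr, a receptor for Apoe particles and reelin, rose from 60.8 to 114 CPM in Cre- to 122 to 204 CPM in AGR cKO, a log2 fold change of 0.57 (adjusted p = 0.0413), and was called in 4 of 12 leave-one-out fits. Pltp, which moves phospholipid between particles, fell by 0.81 (adjusted p = 0.044) and was called in 3 of them. Nceh1, a cholesterol ester hydrolase, fell by 0.49 (adjusted p = 0.0344) and was called in 4 of them. Cyp27a1, the sterol 27-hydroxylase that makes an LXR ligand, fell by 0.81 (adjusted p = 0.0442), was called in 2 of them and lay at only 0.843 to 3.07 CPM. With the marker covariates none of these 5 was called, with adjusted p from 0.388 to 0.755. Their log2 fold changes in that fit were -0.28 for Mlxipl, 0.31 for Vldlr, -0.30 for Pltp, -0.54 for Cyp27a1 and -0.55 for Nceh1, the last no smaller than without the covariates.

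**Figure D5:**
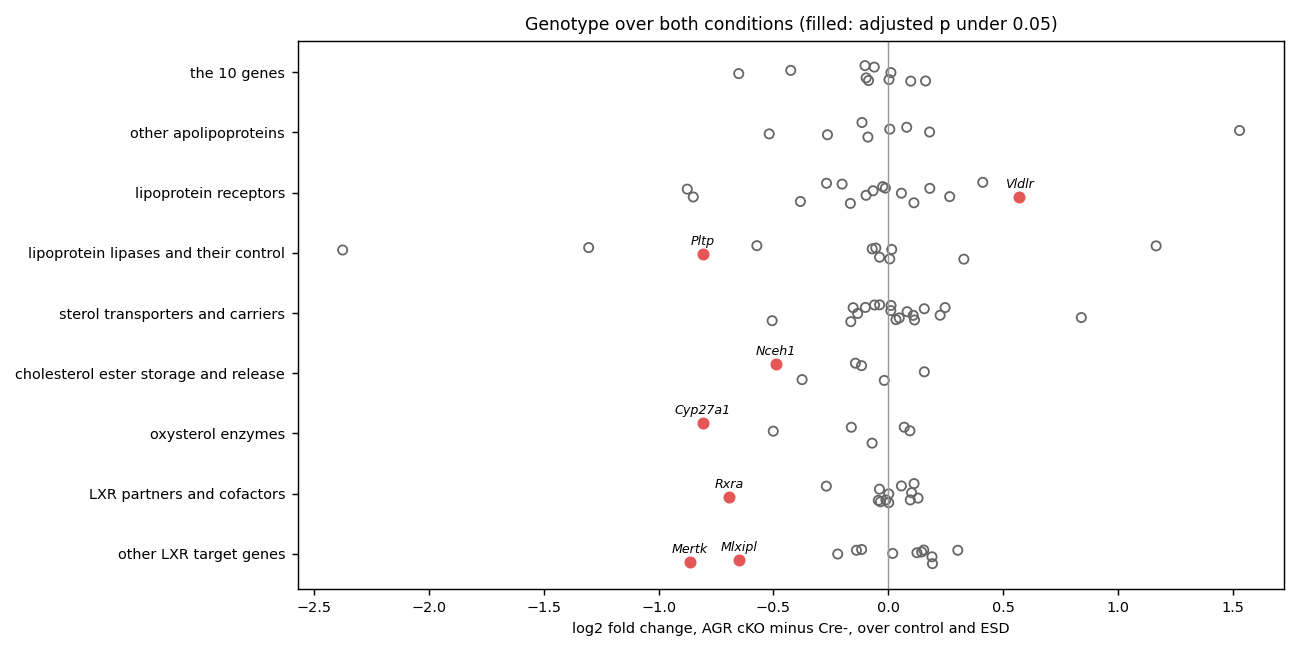
Log2 fold change for genotype over both conditions (AGR cKO minus Cre-) of the 10 genes and of the tested genes of the 8 pathway groups, 1 circle per gene, filled where the adjusted p was under 0.05. The 10 genes have no filled circle, and the 7 filled ones are Vldlr on the higher side and Pltp, Nceh1, Cyp27a1, Rxra, Mertk and Mlxipl on the lower side.

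Among listed genes named by the rule and not called for genotype over both conditions or in ESD, the values in ESD were 0.42 for Lrp4 (adjusted p = 0.0763), 0.28 for Gramd1a (adjusted p = 0.112), -0.81 for Abca9 (adjusted p = 0.174), -0.32 for Plin2 (adjusted p = 0.297), -0.26 for Cyp7b1 (adjusted p = 0.524) and 0.20 for Ncor1 (adjusted p = 0.174). Abcg4, a transporter close to Abcg1, had 0.16 over both conditions (adjusted p = 0.207) at 25.6 to 34.5 CPM. Apoa1, Apoa2 and Apoc3, apolipoprotein genes made mainly by liver and gut, lay at or under 2.85 CPM in every library, and AGR cKO ESD 2 held the highest value of Apoa1 and Apoa2.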

How the data were processed

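RNA sequencing of purified cortical astrocytes gave 12 libraries in 4 groups of 3. The authors deposited whole-number read counts per gene and per transcript, with no scaling stated, and each library also has TPM there, which per the file headers scale a transcript by length and library total. Build mm10 and the tools StringTie 1.3.4b, HISAT2 2.1.0, DESeq2, Bowtie2, HISAT and Trimmomatic are listed, per the submitters' processing notes. The role and order of these tools, and whether counting used the strand, are not given in the sources used here, so reads of overlapping or antisense genes may be mixed. The labels' protocols give a stranded mRNA library kit. The suffixes cre_M and cre_P of the columns were taken to stand for Cre minus and Cre plus.

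Gene counts were filtered with filterByExpr (19163 of 45777 genes kept), scaled by TMM and fitted in edgeR 4.0.16 (R 4.3.3) with glmQLFit and 1 mean per group over all 12 libraries, leaving 8 residual degrees of freedom. The quasi-likelihood F test was two-sided, with Benjamini-Hochberg adjustment over all tested genes and a call at an adjusted p under 0.05. It had 7 contrasts: genotype in control and in ESD, stress in Cre- and in AGR cKO, the interaction, and each factor averaged over the other. Errors of log2 fold changes are standard errors, levels are CPM per library, and 2 groups are said not to overlap where all libraries of one lie above all of the other. With 3 libraries against 3 an exact permutation test reaches 0.1 at the lowest, so single genes were tested in the joint model. Correlations used 100000 permutations. Promoter windows are RefSeq's.

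The members, pathway lists, marker lists and tests were chosen with earlier results of these data known. Named genes are the 10 members, Nr3c1, up to 4 called genes per pathway list (or the 2 with the smallest p) for genotype over both conditions and in ESD, and the 5 most correlated genes of 3 members. A gene that this rule names is not reported here. Alternatives were DESeq2 1.42.0, other scalings, filters and thresholds, a replicate block, limma 3.58.1 on log2(TPM + 1) and log2(TPM + 0.1), marker covariates, only the groups compared, and leaving out each library. FPKM were not used.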

Additional observations from a re-analysis of the deposited data

How the results depend on the processing

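No member was called in any of the 7 comparisons under most of the 24 alternatives. The exceptions were 1 member, Abcg1, for genotype over both conditions with DESeq2 and without Cre- control 2, so the count ran from 0 to 1 when each library was left out in turn. Of 1650 alternative log2 fold changes of the members, 110 (6.67%) changed sign. No member was called in the main fit, so no sign change could fall on a called value. With the replicate number as a block, 0 members were called in every comparison, and all-gene calls were 799 for genotype over both conditions against 668 without it. The numbers were not treated as pairs. Deviations of same-numbered libraries correlated by -0.104 to 0.227, with 7 of 18 above 0.1, and those of differently numbered libraries by -0.223 to 0.167. Whether the numbers mark pairs is not settled by these values.

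All-gene counts moved more. For genotype over both conditions they ran from 151 (without AGR cKO control 2) to 932 (without Cre- control 2), with 1729 under DESeq2 and 5 with the marker covariates. For genotype in ESD 200 calls became 817 with DESeq2, 18 with the covariates, 0 with only the groups compared, and 2 to 280 when a library was left out. For genotype in control 3 calls became 273 with DESeq2. The cause was not tested. Under log2 TPM the values of Apoe moved with its assigned transcript, as described. The intervals of Lpl and Abcg1 for genotype in control and in ESD reached past 2-fold, and the part of depth in that was not tested.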
